A study of Mus musculus with 24 samples.

Results

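The regions described here are stretches of mouse chromatin that carried an H3K27ac peak in 1 of 4 limb bud peak lists and in none of the other three. They were chosen by their presence in the peak lists themselves: peaks of the 4 lists that overlapped by 1 bp or more were merged into 49367 union regions, and the members are the 5989 regions (12.1%) that held a peak of the members' list alone. Absence from the other lists is therefore the rule and not a finding. Members were then separated by the peak score that the authors gave, into 834 members of score 100 or more and 5155 members with a lower score, down to the lowest score in the list, 50.02. All 5989 members were kept and no filter removed any.

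Chromatin immunoprecipitation and sequencing for H3K27ac was done on limb buds of control and Sox9-deficient mouse embryos, with 1 library in each of 4 groups. The groups are Control and Sox9null at embryonic day E11.5, and Control and Sox9cKO at E12.5. The members' list belongs to the sample titled Sox9cKO E12.5 but was deposited under a name that says Sox9null E11.5, and the reverse holds for the other Sox9-deficient list. Both are called here by their sample titles, "the list labelled Sox9cKO" (which holds the members) and "the list labelled Sox9null"; which of title and name is right cannot be told apart here. The labels give no strain, no allele, no Cre driver, no fore or hind limb and no number of pooled embryos, and the other 20 of 24 samples in the series were not analysed here.

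The exclusive overlaps of the members' list went with its deposited name rather than its title. It shared 3186 regions with the E11.5 control alone and 972 with the E12.5 control alone, whereas the list labelled Sox9null shared 312 with the E11.5 control alone and 1819 with the E12.5 control alone. Peak width paired the lists in the same way, with medians of 1332 bp in the members' list and 1141 bp in the E11.5 control. In the E12.5 control the median was 1707 bp and in the list labelled Sox9null 1778 bp. The part of peak number and width in these overlaps was not tested. The 2 lists of Sox9-deficient limb buds had 570 regions that neither control had, and 19792 regions were in all 4 lists. Stage, genotype and library therefore cannot be told apart for any member, and with 1 library per group there are no replicates and no tests. Limb buds are bulk tissue, in which fewer cells of a type and less of the mark per cell cannot be told apart.

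H3K27ac is acetylation of lysine 27 of histone H3, a mark laid down at active promoters and enhancers by the acetyltransferases CBP and p300. A limb bud is mostly mesenchyme that will form cartilage, tendon and connective tissue, covered by ectoderm with an apical ridge, and it is entered by muscle precursors, blood vessels and the red cells within them. Sox9 is the transcription factor required for mesenchymal cells to become chondrocytes, and it acts from the condensation stage on.

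Promoter sequences show what kind of gene starts the members lay on. The RefSeq table (GRCm38.p6, the patch release of the mm10 assembly of the lists) gave 21263 promoter windows for 17492 of 21887 protein-coding genes, and 306 of these windows, of 286 genes, were touched by 283 members over the 250 bases before the start. The sequences of 5 of them are printed 5′ to 3′ as examples, chosen after their values were seen: Jag2, because it had the second highest score among these promoters, and Krt18, Arid5a, Myf5 and Robo4, because they belong to the gene lists used further on. Jag2 encodes a Notch ligand (chr12:112929496-112929745, minus strand), Krt18 a keratin of simple epithelia (chr15:102027966-102028215, plus strand), Arid5a a DNA-binding partner of Sox9 (chr1:36307483-36307732, plus strand), Myf5 a muscle determination factor (chr10:107486135-107486384, minus strand) and Robo4 an endothelial guidance receptor (chr9:37401722-37401971, plus strand). Capitals mark matches, on either strand, to the 14 short motifs searched: ACAAAG (SOX, read as CTTTGT on the other strand) in Krt18 and Arid5a, AGGGGGC (part of the CTCF motif) in Arid5a, TGTGGT (RUNX) in Myf5 and CAGCTG (E-box) in Robo4. Both SOX matches lie upstream of the bases that the members covered.
Jag2: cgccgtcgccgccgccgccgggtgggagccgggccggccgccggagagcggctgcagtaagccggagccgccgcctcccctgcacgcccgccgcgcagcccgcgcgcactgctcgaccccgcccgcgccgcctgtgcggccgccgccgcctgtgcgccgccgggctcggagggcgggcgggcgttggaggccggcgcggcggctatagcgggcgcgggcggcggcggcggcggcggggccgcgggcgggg
Krt18: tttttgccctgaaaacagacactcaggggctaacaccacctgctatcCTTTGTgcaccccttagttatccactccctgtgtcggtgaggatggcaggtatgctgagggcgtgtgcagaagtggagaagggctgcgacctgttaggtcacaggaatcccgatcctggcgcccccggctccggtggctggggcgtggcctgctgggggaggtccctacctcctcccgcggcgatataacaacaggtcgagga
Arid5a: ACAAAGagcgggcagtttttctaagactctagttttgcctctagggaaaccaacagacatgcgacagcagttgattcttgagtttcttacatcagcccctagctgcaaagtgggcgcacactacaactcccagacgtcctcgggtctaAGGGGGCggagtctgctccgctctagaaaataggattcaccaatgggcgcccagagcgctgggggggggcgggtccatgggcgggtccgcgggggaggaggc
Myf5: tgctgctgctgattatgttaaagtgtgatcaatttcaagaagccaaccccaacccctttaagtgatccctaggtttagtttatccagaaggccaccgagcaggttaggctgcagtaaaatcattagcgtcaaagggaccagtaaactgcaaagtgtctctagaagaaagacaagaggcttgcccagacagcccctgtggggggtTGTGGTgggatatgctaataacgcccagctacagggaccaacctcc
Robo4: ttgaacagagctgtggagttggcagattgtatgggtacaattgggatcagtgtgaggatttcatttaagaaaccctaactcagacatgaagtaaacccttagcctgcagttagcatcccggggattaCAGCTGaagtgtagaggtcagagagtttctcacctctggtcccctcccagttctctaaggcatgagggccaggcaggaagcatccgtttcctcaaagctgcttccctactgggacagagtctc

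The member covered all 250 of these bases at Jag2 and Myf5, 198 at Arid5a, 185 at Krt18 and 157 at Robo4. Jag2 had a GC content of 87.2% and an observed over expected CpG ratio of 1.14, the profile of a CpG island. Myf5 (48.8% and 0.202) and Robo4 (49.6% and 0.131) were poor in CpG, and Krt18 (0.527) and Arid5a (0.627) lay between. The member scores were 231 at Jag2, 118 at Krt18, 91.1 at Arid5a, 89.7 at Myf5 and 63.0 at Robo4.

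Members were weak and narrow for their list. Their median score was 65.4 (interquartile range 55.5 to 84.3), against a median of 196 over all 36937 peaks of the list, and their highest score was 351. No header says what the score is. It ranks peaks within a list, and where lists are set side by side the same score need not mean the same in each. Median scores over all peaks were 162 in the E11.5 control, 240 in the E12.5 control and 226 in the list labelled Sox9null. The members' median width was 765 bp (368 to 2480 bp), against 1332 bp over their whole list. Together the members covered 4.87 Mb of the 60.4 Mb in that list. Members of score 100 or more had a median width of 1118.5 bp and those below a median of 735 bp. Only 33 members reached a score of 200.

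The share of the list's peaks that were found in it alone fell steadily with the score, as the plot of private shares by score shows. It was 54.9% of 4240 peaks with a score from 50 to 60, 42.0% of 4554 from 60 to 80 and 29.1% of 3157 from 80 to 100. Above the score of 100 it was 15.6% of 4250 peaks up to 150, 5.76% of 2412 up to 200 and 1.01% of 2876 up to 300. Of 3016 peaks from 300 to 500, 4 were members (0.133%), and of 12432 peaks of 500 or more none was, which allows a share of up to 0.0241% by the limit of 3 counts over the total and 0.0309% by the Wilson interval drawn in the plot. The same decline was seen in the regions private to each other list. From 50 to 60 those shares were 47.1% in the E11.5 control, 47.9% at E12.5 and 27.1% in the other Sox9-deficient list. From 100 to 150 they were 8.59%, 18.01% and 3.98%.

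**Figure D1:**
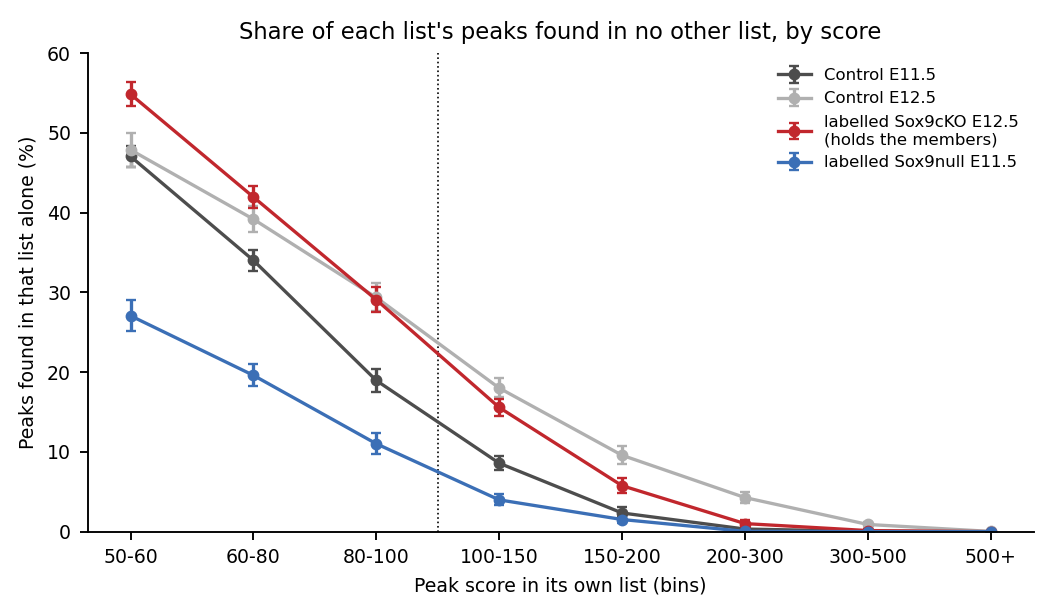
Share of each list's peaks (vertical axis, %) that lie in regions found in no other list, by the peak's score in its own list (horizontal axis, bins without a unit); points are the 4 lists, bars are Wilson 95% intervals for counting error, and the dotted line is the score of 100. The members' list starts at 54.9% in the lowest bin and is at 15.6% just above the dotted line, between the E12.5 control (18.01%) and the E11.5 control (8.59%).

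Every list had regions of its own, and the members' list had the most. The private regions numbered 5989 of 34512 regions in the list labelled Sox9cKO (17.4%), 5211 of 32658 in the E11.5 control (16.0%), 4301 of 31631 in the E12.5 control (13.6%) and 1610 of 27202 in the list labelled Sox9null (5.92%). Of these, 13.9% of the members had a score of 100 or more, against 7.96% of the regions private to the E11.5 control, 27.1% of those private to the E12.5 control and 11.1% of those private to the list labelled Sox9null. The depth of the libraries in reads is unknown, and a score of 100 need not be the same cut in each list.

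Scores ran on without a gap at 100. Just inside it were regions nearest Slc1a3 (100.27), Grip1 (100.26), Iqschfp (100.17), Plpp7 (100.15) and Myom2 (100.04). Just outside were regions nearest Kcnk5, Diaph3 and Cds2 (99.93 each), Gpx6 and Btn1a1 (99.92 each). On autosomes 16.1% to 19.1% of the list's regions were members. On the X chromosome 72 of 729 regions were (9.88%), and on the Y chromosome 4 of 19.

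Members lay mostly away from gene ends. Of the 5989 members, 58.8% (Wilson 95% interval 57.51% to 59.998%, for counting error only) overlapped the body of a protein-coding gene, against 69.1% of the 28523 other regions of the same list. For members of score 100 or more the share was 62.5% (59.1% to 65.7%). Within 1 kb of either end of a gene lay 8.97% of members (8.27% to 9.72%) and 14.4% of those of score 100 or more (12.2% to 16.9%), against 39.5% of the list's other regions. More than 100 kb from any gene lay 10.1% of members and 8.12% of the other regions. The other regions, merged over lists, were wider, with a median of 2104 bp against 765 bp for members. The part of width in these shares was not tested.

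The private regions of the other lists differed in place. Those of the E11.5 control came closest to the members, with 59.6% in a gene and 7.96% within 1 kb of a gene end. Of those private to the E12.5 control 45.4% lay in a gene, 3.23% within 1 kb of a gene end and 22.7% over 100 kb from a gene. For the list labelled Sox9null these shares were 44.1%, 2.61% and 23.4%.

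Members were often neighbours of chromatin marked in the other lists. The closest region holding a peak of another list was a median of 7213 bp away, and it was within 1 kb of 16.9% of members, within 5 kb of 41.4%, within 20 kb of 73.2% and within 100 kb of 95.3%. Members of score 100 or more were no nearer to such regions, with 39.4% within 5 kb and a median of 7925 bp. The closest such region was marked in all 4 lists for 43.0% of members. Of regions private to the E11.5 control 43.2% lay within 5 kb of another list's region, of those private to the E12.5 control 45.3%, and of those private to the list labelled Sox9null 52.6%.

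Members also came in rows. On 140 stretches, 3 or more members followed each other with no region of another list between them, 110 of 3 members, 22 of 4, 5 of 5 and 3 of 6. Rows of 6 lay at Setd3, over 83.3 kb with scores from 50.6 to 196, and from Rnaset2b to Rps6ka2, over 116 kb with scores from 62.3 to 139. How many rows would arise from 5989 members among 49367 union regions by number alone was not computed. Rows of the other lists' private regions are not counted here. How uniquely reads map at such rows, as at Sfi1 and across H2al1a to H2al1j, was not examined.

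Among the 25 members of highest score, 12 lay in a gene and 13 outside, 4 were within 1 kb of a gene end, and 6 were more than 20 kb from any gene. For 15 of them the closest region of another list was over 5 kb away.

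The member of highest score (351) overlapped Sfn, which encodes the epithelial 14-3-3 sigma protein, at chr4:133598993-133601388. Trp63, the master regulator of stratified epithelium, held a member of score 249.7 in its body. Jag2 (231) is the Notch ligand whose promoter is printed above. Pard3, a cell polarity gene, was the nearest gene to a member of score 223 that lay 91126 bp away.

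Slc4a1 encodes band 3, the anion exchanger of the red cell membrane, and a member of score 264 lay 10030 bp from it at chr11:102375311-102376935. The nearest region of another list was 29259 bp away.

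Other leading members lay at genes of varied roles. Arid1b (279.8), a subunit of the BAF chromatin remodelling complex, Exoc4 (279), a subunit of the exocyst, Ppp1r9a (253), a neuronal actin-binding protein, St6gal1 (216), a sialyltransferase, Iffo2 (209.7) and Iqch (209) held them within the gene body. Exoc4's member was 223726 bp from any region of another list. Tprn (282) and Fam219a (227) were marked at a gene end. Outside genes, members lay near Lypd4 (307), Rbm38 (285, an RNA-binding protein), Btrc (268, an F-box protein that targets beta-catenin), Tnfrsf14 (248), Camk1g (235) and H2al1j (216, a histone variant of the testis), at distances of 1519 to 18044 bp.

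For members deep between genes, the nearest gene is only a landmark. Elac2 (322) was 177052 bp and Hs3st3a1 (273) 149061 bp from members on the same stretch of chromosome 11, at chr11:64800066-64801978 and chr11:64671896-64674328. Got2 (225) was 1151328 bp away, Tbca (235) 78200 bp and Gpx5 (277) 21622 bp. The plot of the 25 highest scores separates these classes.

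**Figure D2:**
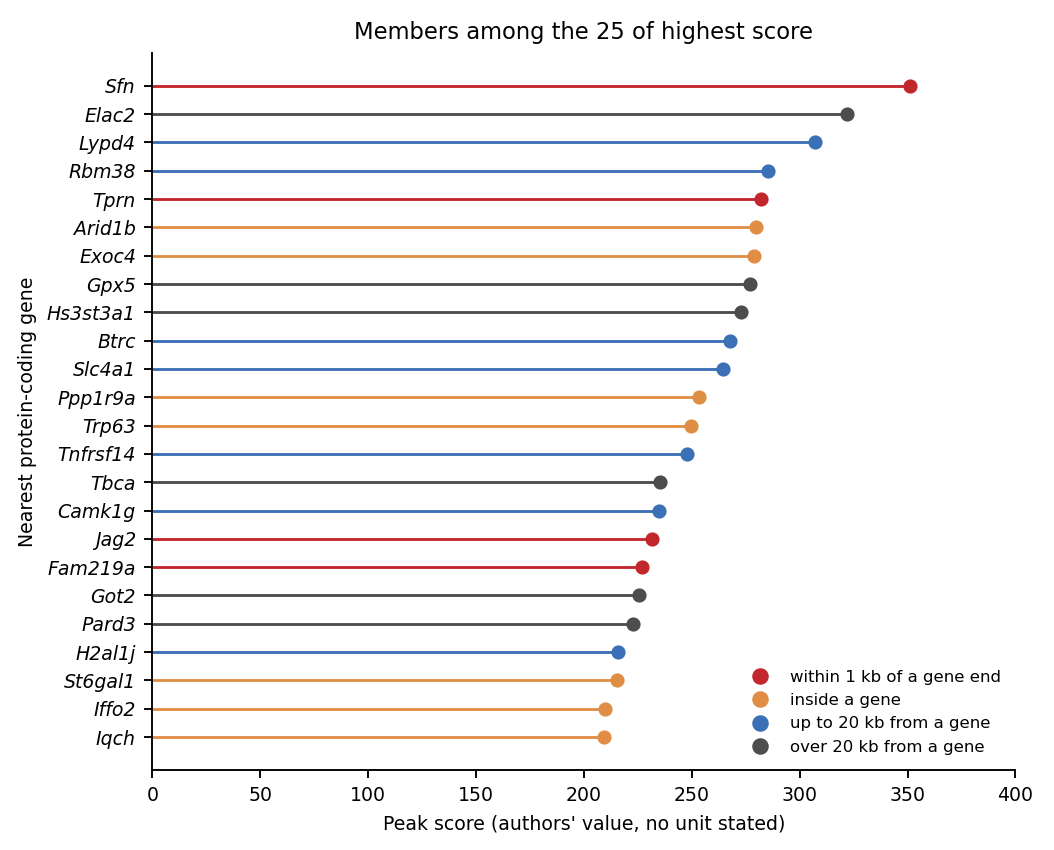
Score of members among the 25 of highest score (horizontal axis, the authors' value, no unit stated), by nearest protein-coding gene (vertical axis), coloured by where the member lies. Scores run from 209 at Iqch to 351 at Sfn, and 6 of the 25 lie over 20 kb from the gene that names them.

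The 10 widest members included 6 of these 25. Those named here were nearest Cdc37l1 (2480 bp, score 200.7), Hs3st3a1 (2433 bp), Sfn (2396 bp), Jag2 (2243 bp), Arid1b (2164 bp), the netrin receptor gene Unc5b (2151 bp, score 169), H2al1j (2105 bp), Oxnad1 (2041 bp, score 192) and Ssc4d (2022 bp, score 188). The lowest score among the 10 was 169.

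Within 20 kb of a protein-coding gene lay 4459 members (74.5%), and 4534 of 21887 genes (20.7%) had a member in the body or within 20 kb. For members of score 100 or more this was 925 genes (4.23%). Regions private to the E11.5 control stood at 17.9% of genes (2.12% at a score of 100 or more), those private to the E12.5 control at 8.96% (3.02%) and those private to the list labelled Sox9null at 4.11% (0.567%). Of the genes with a member, 3339 had 1, 790 had 2 and the rest had 3 to 11.

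Genes with many members were mostly long. Itga9, an integrin subunit, had 11 in a gene of 294 kb, where the list labelled Sox9cKO had 26 regions against 19 in the E11.5 control, 16 in the E12.5 control and 17 in the list labelled Sox9null. Smyd3, a SET domain methyltransferase, had 10, and Rbms3 (an RNA-binding protein), Arhgap26, Btbd9 and Kif6 had 9 each. Sfi1, a centrosomal gene of only 71.5 kb, also had 9 among 16 regions, where the E11.5 control had 11, the list labelled Sox9null 1 and the E12.5 control 2. Arid1b, Spock1, Sh3pxd2a, Disc1 and Syn3 had 8 each, and Prdm16, Msi2 and Gse1 had 7 each.

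The members' surroundings were then read through 20 gene lists of limb cell types and programmes, counting genes with a member in the body or within 20 kb. Genes differ in length and in how much acetylated chromatin they hold, so the share of the peak list's regions at those genes that were members, and members per Mb, are given too. They were 16.3% and 3.10 over all genes. The lists were chosen with earlier results known and none was tested.

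Red cell genes held the highest share of members among their regions, counting only gene lists with more than 10 regions. By members per Mb, skeletal muscle (10.1) and limb identity genes (11.01) stood higher. By genes with a member, vessel (59.1%) and limb identity genes (63.6%) did. Of 20 erythroid genes 11 had a member (55.0%, against 20.7% of all genes), 2 of them at a score of 100 or more. Of the 42 regions of the members' list at these genes 12 were members (28.6%), or 9.50 per Mb. At the same genes the E11.5 control had 7 private regions at 5 genes, and neither the E12.5 control nor the list labelled Sox9null had any. Over all genes the shares with such a region were 17.9%, 8.96% and 4.11%, in that order.

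Besides Slc4a1, members stood in Tal1 (102), the haematopoietic bHLH factor, and in Nfe2 (85.9), a globin regulator. At Hbb-bh1, an embryonic beta-like globin gene, 2 members of up to 82.1 lay within 20 kb, the higher 16990 bp from the gene, and no other list had a region there, the closest being 357555 bp away. Their nearest gene was Hbb-y, which is not on the list and lies between them and Hbb-bh1. It had 3 members within 20 kb, with scores from 51.9 to 82.1. The alpha-like globin genes Hba-a1 and Hba-x shared a member of score 56.5. The main erythroid regulators Gata1 and Klf1 had no member. When each list was cut to equal numbers of top peaks, 4 of these 20 genes had a member in place of 11. Over all 21887 genes the same cut left 2446 with a member in place of 4534.

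Skeletal muscle genes had a member at 12 of 24 genes, 4 of them at a score of 100 or more. At these genes 19 of the list's 73 regions were members (26.03%, 10.1 per Mb). The E11.5 control had 11 private regions at 9 genes, the E12.5 control 3 at 3 and the list labelled Sox9null 2 at 2.

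Several genes of migrating muscle precursors held members, though Met, a receptor gene of the same cells, had none. Lbx1, the homeobox gene that marks precursors entering the limb, held a member of 161 in its body, next to another of 53.7, at chr19:45233914-45235798. Within 20 kb of it the members' list had 4 regions, the E11.5 control 2 and the other lists none. Pax7 held 2 members, of 134 and 75.3, and no other list had a region within 20 kb, the closest being 105318 bp away. Pax3 held its highest at 129, with 3 regions in the members' list, 2 in the E11.5 control and none in the other lists.

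The highest score on this list stood at Mymk. This gene, which encodes a myoblast fusion protein, had 4 within 20 kb, of 193, 97.2, 97.0 and 65.1, of which the first and second lay in its neighbour Adamtsl2, a gene of the matrix. Myf5 and Myf6 shared 2 members, the higher of 89.7 at the Myf5 promoter. Myod1, Myog, Acta1 and Ttn had none. With lists of equal length, 11 of the 24 genes had a member, as did 2446 of all 21887 genes.

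Vessel genes had a member at 13 of 22 genes (59.1%), 2 of them at 100 or more. Of 72 regions 17 were members (23.6%, 8.02 per Mb). The E11.5 control had 13 private regions at 8 of these genes, the E12.5 control 12 at 6 and the list labelled Sox9null 4 at 3. Strong private regions were more frequent in the E12.5 control than among the members, with a score of 100 or more at 4 of the genes. Neither the E11.5 control nor the list labelled Sox9null had any of that score here. Of the E12.5 control's 63 regions at these genes 19.05% were private, against 10.4% over all genes. Eng, which encodes the TGF-beta coreceptor endoglin, had 2 (the higher 113), Prox1, the regulator of lymphatic endothelium, 1 of 113 in its body, Plvap, a protein of fenestrae, 1 of 89.7, and Erg, an ETS factor, 3 of up to 82.7. Cdh5, Tek, Tie1 and the SoxF genes Sox7, Sox17 and Sox18 had none. With lists of equal length, 4 of the 22 genes had a member, as did 2446 of all 21887 genes.

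Genes of the ectoderm and its apical ridge had a member at 8 of 22 genes (36.4%), 3 of them at 100 or more, and 12 of 58 regions were members (20.7%, 7.50 per Mb). The E11.5 control had 10 private regions at 9 of these genes, none of score 100 or more. With lists of equal length, 3 of the 22 genes had a member, as did 2446 of all 21887 genes. Trp63 led with 249.7. Grhl2, a grainyhead factor of epithelial identity, had 4 members of up to 124, Krt18 1 of 118 and En1, the ventral ectoderm factor, 1 of 70.7. The ridge factor gene Fgf8 and the keratin genes Krt5, Krt8 and Krt14 had none.

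**Figure D3:**
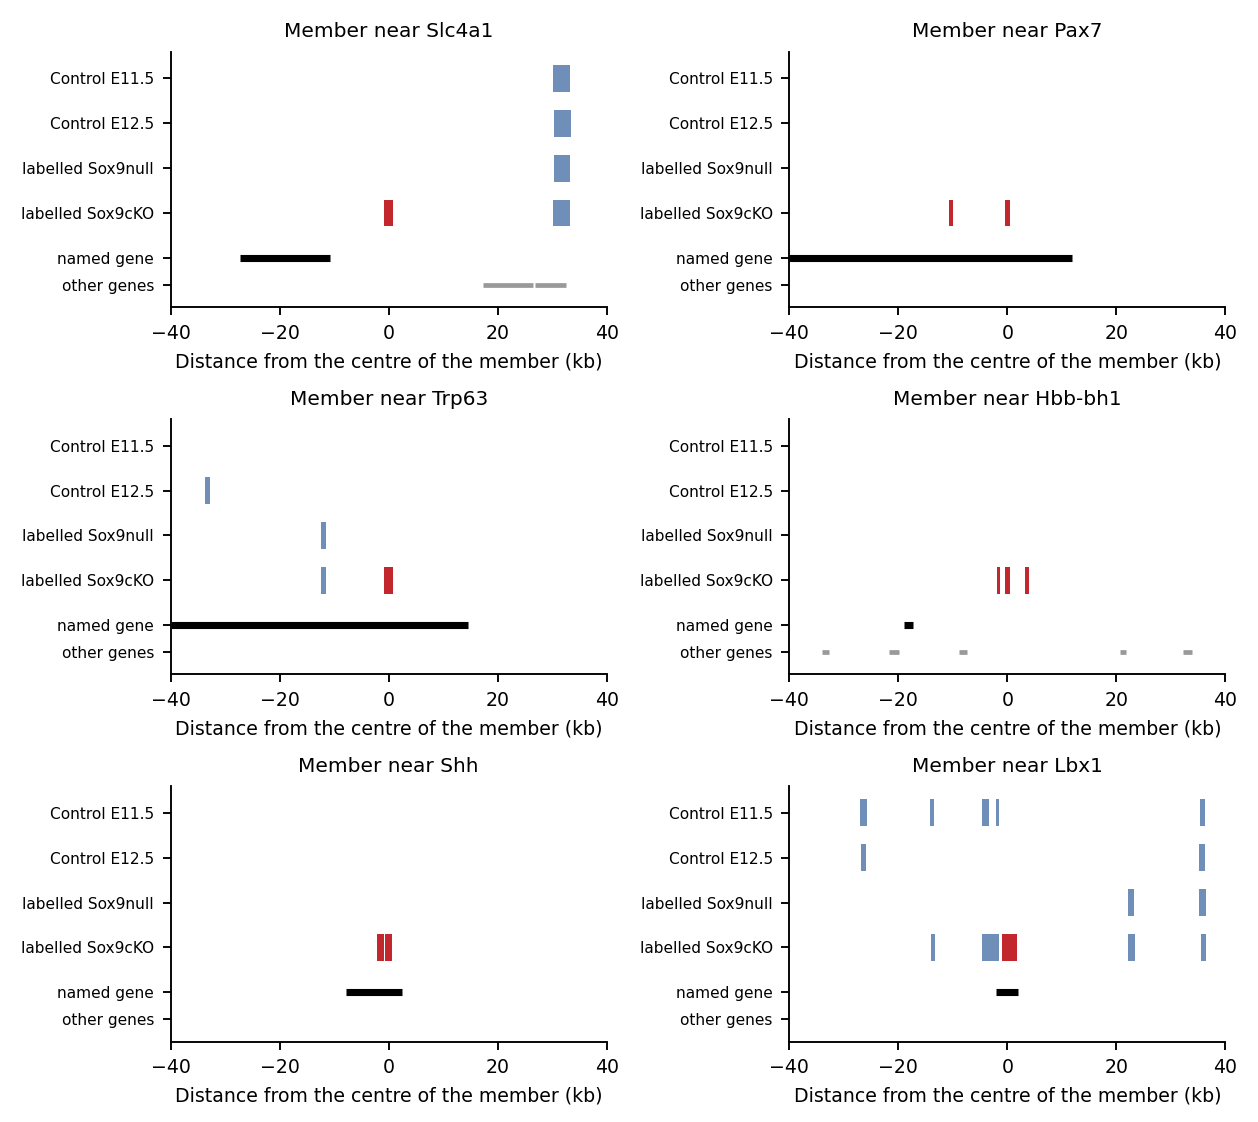
Peaks of the 4 lists (rows) within 40 kb of the strongest member at Slc4a1, Pax7, Trp63, Hbb-bh1, Shh and Lbx1 (horizontal axis, distance from the member's centre in kb, in the direction of rising position); red bars are members, blue bars other peaks, the black bar is the named gene and grey bars are other genes, all cut at the plot's edge. At Pax7, Hbb-bh1 and Shh the members are the only peaks drawn, and at Lbx1 the member adjoins a peak of score 316 that the E11.5 control shares.

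The other lists of non-mesenchymal cells are shorter or held fewer members. Among 20 macrophage and other blood cell genes, 4 had a member, near the 20.7% of all genes, and 5 of 42 regions were members (11.9%, 2.82 per Mb), with Spi1, the myeloid ETS factor PU.1, at 155, Ptprc, which encodes the leukocyte antigen CD45, at 136 and Ikzf1 at 86.9. Among 12 smooth muscle and pericyte genes Pdgfrb (122) and Mylk (105) had members, 5 of 30 regions (16.7%, 4.06 per Mb). Of 6 melanocyte genes Pmel (85.4) and Mitf (55.2) did (33.3%), with 2 of only 7 regions (28.6%, 3.25 per Mb). None of 19 nerve and glia genes had a member among their 24 regions, while the E11.5 control had private regions at 3 of them. Among 20 genes of tissues outside the limb, Insl3 was the only one with a member (76.9), and 2 of 11 regions were members (18.2%, 1.37 per Mb).

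Limb patterning genes had a member at 15 of 42 genes (35.7%), 4 of them at 100 or more, and 28 of 148 regions were members (18.9%, 7.84 per Mb). The E11.5 control had private regions at 13 of these genes, the E12.5 control at 9 and the list labelled Sox9null at 3. Irx3, a homeobox gene of the proximal limb, had 1 of 150.2, Meis2, another proximal factor, 2 of up to 137, and Tbx3, a T-box gene of the limb margins, 2 of up to 125. Shh, the signal of the posterior polarizing region, had 2 members, of 128 and 78.9, both inside the gene, the stronger at chr5:28464095-28465311, and no region of any other list lay within 145235 bp of it. Gli3, which encodes the repressor that Shh signalling counters, had 4 of up to 69.2. The 5' genes Hoxa9 to Hoxa13 and Hoxd9 to Hoxd13 on the list had none.

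Genes that set fore and hind limb apart had a member at 7 of 11 genes (63.6%), but several of these shared a region, so the count stands for 5 regions of 31 (16.1%, 11.01 per Mb). The E11.5 control came near this, with 4 private regions at 6 of the genes (54.5%, 8.81 per Mb). The E12.5 control had 2 private regions at 1 gene, and the list labelled Sox9null 1 at 1. Hoxb5 and Hoxb6 shared a member of 154, Tbx5, the forelimb T-box gene, held 1 of 107, Hoxc6, Hoxc8 and Hoxc9 shared 1 of 65.3, and Tbx4, its hind limb counterpart, had 2 of up to 54.7. The hind limb gene Pitx1 had none.

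Genes of the cartilage programme itself were not rich in members. The cartilage matrix list had a member at 7 of 29 genes (24.1%), 1 of them at 100 or more, and 10 of 71 regions were members (14.1%, 3.48 per Mb), close to the share near all genes. At the same genes the E12.5 control had 23 private regions at 15 genes, of which 8 genes had 1 of score 100 or more. Col27a1, a fibrillar collagen gene of cartilage, held the 1 strong member (191). Chst11, a chondroitin sulphotransferase gene, followed with 87.3, Wwp2, the host gene of miR-140, with 75.1 and Comp with 74.2. Col2a1, Col9a1, Col11a1, Acan and Matn1 had none within 20 kb. Matn1 was the nearest gene to a row of 4 members farther away, at chr4:131018734-131163887, with scores from 51.8 to 78.6.

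Chondrogenic regulators had a member at 11 of 29 genes (37.9%), 4 of them at 100 or more, and 22 of 146 regions were members (15.1%, 3.90 per Mb). The E11.5 control had private regions at 13 of these genes, 2 of them at 100 or more. For the E12.5 control this was 12 and 9, and for the list labelled Sox9null 6 and 0. Zbtb20, a zinc finger repressor active in chondrocyte hypertrophy, reached 141 with 5 members, Foxc1 139.6, Trps1, the GATA-type repressor of trichorhinophalangeal syndrome, 106 and Nfia 103. A member of 96.2 lay 19710 bp from Sox9. Peaks covered 96.6% of the Sox9 gene body at E11.5 and 81.3% at E12.5 in the controls, 54.3% in the list labelled Sox9cKO and 55.8% in its counterpart labelled Sox9null.

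The other mesenchymal lists held few strong members. Condensation and adhesion genes had a member at 7 of 21 genes (33.3%), none at 100 or more. Sdc3 (94.5), Col1a2 (93.3), Ncam1 (90.3) and Itga5 (66.0) were in the lead, and 8 of 60 regions were members (13.3%, 2.96 per Mb). Private regions stood at 8 of the 21 genes in the E11.5 control, 10 in the E12.5 control and 2 in the list labelled Sox9null. BMP and joint genes had a member at 10 of 25, with Osr2 at 134 and Bmp7 at 89.4. Of their 92 regions 17 were members (18.5%, 6.75 per Mb). The E11.5 control stood higher, with 18 of its 85 regions private (21.2%, 7.14 per Mb), at 13 of these genes. Its private regions reached a score of 100 or more at 3 genes, the members at 1. For the E12.5 control the private regions lay at 7 genes, 4 of them at 100 or more. The list labelled Sox9null had some at 3 genes, none of that score. Tendon and connective tissue genes had a member at 5 of 18 (27.8%), Tcf7l2 leading at 100.48 with 4 members. Of their 66 regions 13 were members (19.7%, 5.67 per Mb). Each control had private regions at 6 of these 18 genes, and the list labelled Sox9null at 4. In the E12.5 control they reached a score of 100 or more at all 6, and in the E11.5 control at none. Of 20 growth plate and bone genes, Alpl, the bone alkaline phosphatase gene, was the only one with members (2, up to 58.2), which were 2 of 37 regions (5.41%, 1.27 per Mb).

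Lists of general cell state stood near all genes by genes with a member and below them by the share of regions. Early response genes had a member at 4 of 18 (22.2%), with Junb at 133 and Nr4a1 at 81.2, hypoxia and glycolysis genes at 3 of 14 (21.4%), with Egln3 at 112, and housekeeping genes at 4 of 20, with Rpl13a, a ribosomal protein gene, at 96.9. Of their regions 4 of 57 (7.02%), 4 of 40 and 4 of 57 (7.02%) were members, or 4.79, 4.25 and 3.71 per Mb.

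**Figure D4:**
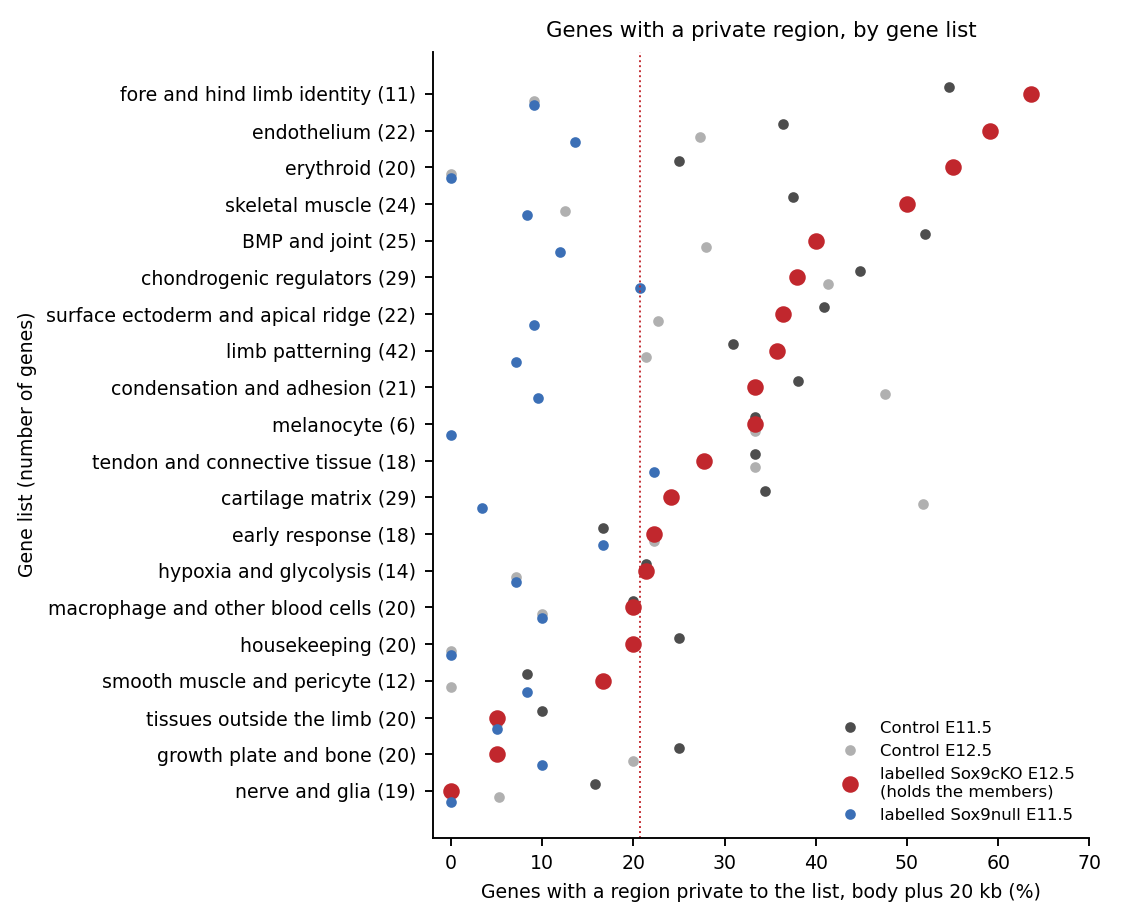
Percent of genes in each of 20 lists (vertical axis, number of genes in brackets) that have a region private to a peak list in the body or within 20 kb (horizontal axis); red points are the members, other points the private regions of the other 3 lists, moved slightly up or down where needed, and the dotted line is the 20.7% of all genes with a member. Erythroid genes stand at 55.0% for the members and at 0 for both the E12.5 control and the other Sox9-deficient list, and cartilage matrix genes at 24.1% for the members and 51.7% for the E12.5 control.

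At a small group of genes the members were the only acetylated regions in any of the 4 lists. These were 319 genes (1.46% of all genes), named by 268 different top members, and at 61 of the genes the top member had a score of 100 or more. The same count was 257 genes (1.17%) for the E11.5 control, 90 (0.411%) for the E12.5 control and 20 (0.0914%) for the list labelled Sox9null. Of the 409 genes in the 20 lists, 8 were among the 319: Slc4a1 (264), Pax7 (134), Shh (128), Arid5a (91.1), Hbb-bh1 (82.1), Wnt7a (63.8), the red cell ammonium transporter gene Rhag (58.1) and the lymphatic receptor gene Flt4 (57.1). Of the same 409 genes, the like count was 6 for the E11.5 control, 4 for the E12.5 control and 0 for the list labelled Sox9null. Wnt7a, the dorsal ectoderm signal, carried its member at the start of the gene. The genes outside the lists with the highest scores, named after their values were seen, were H2al1j (216), Sln (204), which encodes the calcium pump inhibitor sarcolipin of muscle, Pde1a (192), Map7d3 (187) and Jchain (164). Cxcr4, the chemokine receptor gene of migrating cells, stood at 156.

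Most members outside gene ends lay nearest to genes whose start was marked everywhere. Among 4190 members over 1 kb from a gene end with a start in the RefSeq table, the nearest gene's start had a region within 1 kb in all 4 lists for 69.5% (68.1% to 70.9%), and in none for 16.6% (15.5% to 17.7%). For 563 members of score 100 or more these were 70.3% and 15.5%, and for 13508 other regions of the list 73.7% and 15.2%.

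The promoters that members touched were intermediate in CpG content. Their median observed over expected CpG ratio in the 250 bases before the start was 0.513 (interquartile range 0.311 to 0.740) over 306 windows and 0.563 over the 91 windows with a member of score 100 or more. It was 0.754 over 11783 windows touched by the list's other regions, 0.198 over 8850 windows with no region of any list and 0.530 over all windows. A ratio of 0.6 or more was found in 41.2% (35.8% to 46.8%) of member promoters and in 72.2% of those under other regions. Promoters under regions private to the E11.5 control had a median of 0.493 (187 windows). The highest scores among member promoters were those of Tprn (282), Jag2 (231), Dnaic1 and Fam219a, which share a member of 227, and Pygl (205).

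**Figure D5:**
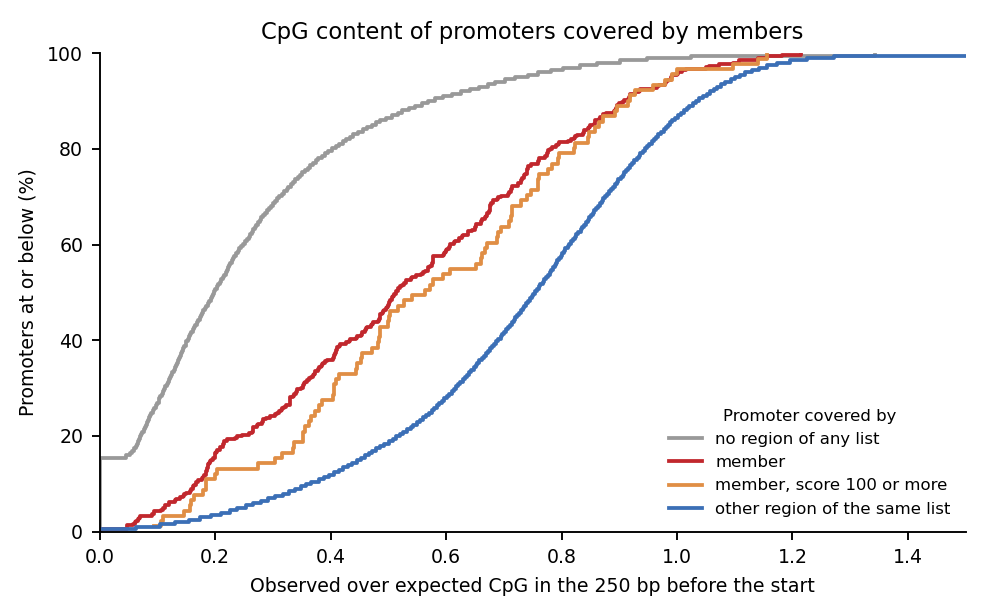
Cumulative share of promoters (vertical axis, %) by observed over expected CpG in the 250 bases before the start (horizontal axis, cut at 1.5), for promoters touched by members, by members of score 100 or more, by other regions of the same list, and by no region. The members' curve (median 0.513) runs between unmarked promoters (0.198) and promoters under the list's other regions (0.754).

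The 14 motifs were read in the same 250 bases on both strands. The E-box CAGCTG was in 17.6% of member promoters (13.8% to 22.3%), in 11.3% of promoters under the list's other regions and in 12.1% of all promoters. AGATAA, the GATA form, was in 7.52%, 4.80% and 8.81%. CCGGAAG, an ETS form, was in 5.56%, 14.5% and 8.98%. ACAATG and ACAAAG, the SOX forms, were in 5.23% and 12.7% of member promoters, in 5.41% and 11.3% under other regions and in 9.35% and 14.9% of all. AGGGGGC was in 17.0%, 15.7% and 11.6%, and TGTGGT in 7.52%, 9.56% and 12.4%. Base composition differed between these sets of promoters as given above, and its part in the motif shares was not tested. A match is a description of the letters, not of binding.

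MicroRNA genes were looked at because several are landmarks of blood and cartilage cells. Of 1005 hairpins in the RefSeq table, 8 were covered by a member and 86 had a member within 10 kb. No like count is given here for the private regions of the other lists, so these counts are not read as many or few. The red cell cluster of Mir144 and Mir451a, chosen after the values were seen, had 2 members of 53.9 and 74.7 at 3489 to 4862 bp from the hairpins. Within 10 kb of Mir144 the members' list had 5 regions, the E11.5 control 2, the list labelled Sox9null 2 and the E12.5 control 1. Their mature sequences are given because they identify the cluster, with the seed (bases 2 to 8) in capitals; the 3 seeds differ from each other.
miR-144-5p: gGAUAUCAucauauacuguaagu
miR-144-3p: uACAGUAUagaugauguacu
miR-451a: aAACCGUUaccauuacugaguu

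Mir142, a microRNA gene of blood cells, had a member of 91.3 at 4966 bp, Mir10a, in the HoxB cluster, the member of 154 that Hoxb5 and Hoxb6 share, at 1547 bp, and Mir140, a cartilage microRNA gene, 2 members of 56.0 and 75.1 at 5244 and 6098 bp. Near Mir140 the members' list had 4 regions, the E12.5 control 3 and the other lists 2 each.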

How the data were processed

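H3K27ac peak lists of 4 libraries, 1 per group, were used. Each list gives peak positions and a score. The score is the authors' own, deposited with no header that explains it. Peak names in the lists name MACS. The submitters' processing notes name mm10, deepTools and CASAVA 1.8. Caller version and settings, aligner, use of inputs and read depth were not given in the sources used here, and depth moves the number and width of peaks. Peaks were listed per sample.

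Peaks overlapping by 1 bp were merged. Genes came from RefSeq for GRCm38.p6. Distance to a gene end was used in place of the planned start, because the promoter table lacks some genes, and chromosome 18 starts were not used here. The planned motif search at region centres needs a genome, so promoters were searched. Members and gene lists were chosen with earlier results of these data known. Named are the 25 highest and 10 widest members, the 15 genes with most members, up to 4 genes per list by score, and 5 regions on each side of 100. Some items this rule picks out are left unreported. Other names, including genes without a member, were chosen after values were seen. Alternatives were other peak subsets, merging, windows and left-out lists; those on single gene lists, starts, and some for genes with a member were added after the data were seen. Merging was tested on simulated data. Scripts ran in Python 3.11.15 with pandas 2.3.3, numpy 2.4.6, matplotlib 3.10.9 and scipy 1.17.1.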

Additional observations from a re-analysis of the deposited data

How the results depend on the processing

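The count of members depended on the peaks admitted. It was 5989, and 1290 when each list was cut to its upper 50% by score, 2588 when each was cut to its 28419 top peaks and 9286 without the E11.5 control list. Merging peaks up to 1 kb apart, 50% coverage of single peaks, autosomes alone and leaving out either other list kept it between 4840 and 7173. Members of score 100 or more went from 834 to 1290, 1276 and 2411 under the first 3 settings. The share within a gene (58.8%) was 63.0% with the upper 50% and 62.5% at a score of 100 or more. The share within 1 kb of a gene end (8.97%) was 24.96% with the upper 50%, 11.98% with equal numbers of peaks, 14.4% at a score of 100 or more and 6.54% with gene starts alone. The share within 5 kb of another list's region (41.4%) was 21.6%, 35.1%, 29.2% with 1 kb merging, and 39.4% at a score of 100 or more. Genes with a member (4534) became 2446 with equal numbers of peaks, 925 at a score of 100 or more, 2980 within 5 kb and 10032 within 100 kb. Ectoderm genes with a member went from 8 to 3, and cartilage matrix genes from 7 to 4, with equal numbers of peaks. Windows of 100 kb gave 19 and 15 of them, and 11 cartilage matrix genes had a member without the E11.5 control list. The causes were not tested. No paired analysis was possible because each group had 1 library and no result comes from a test.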
